A study of Mus musculus with 6 samples.

Results

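The solute carriers described here are the membrane proteins that move ions, sugars, metals, organic anions, vitamins and related solutes, without the families that carry amino acids, peptides and monocarboxylates. They were measured in mouse lateral ventricular choroid plexus at embryonic day 15 (E15) and in the adult. A transcript cluster, which gathers probe sets for the exons of a gene, or in 4 of the carrier clusters of more than 1, was counted when any of its gene symbols began with Slc and a number or with Slco. The families Slc1a, Slc3a, Slc6a, Slc7a, Slc15a, Slc16a, Slc17a, Slc36a, Slc38a and Slc43a were left out, as was Slc4a1, the anion exchanger of red blood cells. This gave 80 clusters of the 3956 with values in the deposited tables used, standing for 79 gene symbols, because Slc8a1 is named by 2 clusters. RNA came from healthy Swiss Webster mice, as 3 pools of lateral ventricular plexus from E15 embryos of mixed sex and 3 pools from adult females, with 30 embryos and 10 adults in a pool according to the sample labels. No animal carried an altered gene or received a treatment. Sex therefore differed between the ages along with age, and their parts cannot be told apart. Whole plexus was taken, which holds epithelium, blood vessels and stroma, and the RNA went through 2 rounds of amplification before it was hybridized to 6 Affymetrix mouse exon arrays, 1 for each pool.

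The choroid plexus epithelium forms the barrier between blood and cerebrospinal fluid (CSF) and secretes the CSF. Solute carriers in the membranes facing blood and facing CSF couple the movement of sodium, chloride and bicarbonate to that of water, and others bring vitamins, nucleosides, metals and hormones to the brain or clear organic anions from the CSF. Members of 1 family often differ in the membrane they sit in and in the cell type that uses them, so each is described with its own values.

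The question was which of these carriers were enriched in the adult and which at E15. Each cluster has 1 log2 value for the adult and 1 for E15, since the authors merged the 3 arrays of an age, and in most clusters the 2 values lie about equally far from 0 on either side, the size of their sum having a median of 0.08 over the carriers and a highest value of 1.18. Only the contrast between the ages can be read from them and not how strongly a gene was expressed, so no gene was ranked against another by level. Every difference below is adult minus E15 on the log2 scale, with a minus sign where E15 was higher, and a fold is 2 raised to its size. Merging leaves no replicate spread from which an error or a test could be given, and precision is limited by how few arrays there were. In RNA from whole tissue, fewer cells of a type and less RNA per cell cannot be told apart.

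Of the 80 carriers, 30 were at least 2-fold higher in the adult (37.5%, against 22.9% of all 3956 clusters) and 11 were at least 2-fold higher at E15 (13.8%, against 24.4% of all clusters). The remaining 39 differed by less than 2-fold, 27 of them on the adult side of 0 and 12 on the E15 side. The median difference was 0.70 over the carriers and -0.16 over all clusters. At 4-fold or more, 10 carriers were higher in the adult (5.03% of all clusters were) and 2 were higher at E15 (5.84% of all clusters were). Among the 35 clusters of the excluded solute carrier families, which are mainly carriers of amino acids and monocarboxylates, 9 were at least 2-fold higher in the adult and 13 at E15, and their median difference was -0.53. These counts and medians have no test, because each age is 1 merged value in the values used here. The authors' own unpaired test of single clusters is described below. Markers of other cells moved between the ages as well. All 10 cell cycle genes listed were at least 2-fold higher at E15, with a median of -3.15. Endothelial markers had values for 4 of 7 genes, all higher at E15 and 3 of them by at least 2-fold, with a median of -1.36. Oligodendrocyte markers had values for 3 of 6 genes, all 3 at least 2-fold higher in the adult, with a median of 2.09. The part of these cells in the counts of carriers was not tested.

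**Figure D1:**
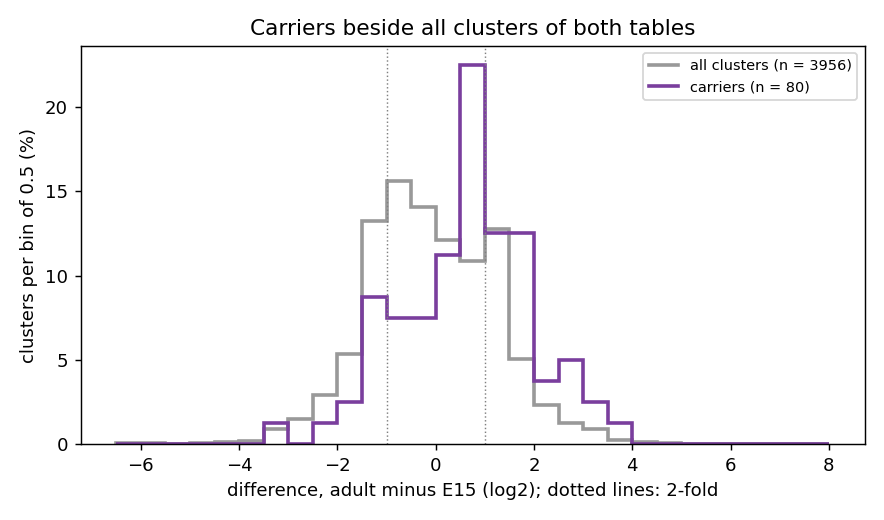
Distribution of the difference, adult minus E15 (log2, x axis), as the percentage of clusters in each bin (y axis) for the 80 carriers and for all 3956 clusters, with dotted lines at 2-fold. The carriers have a median of 0.70 and lie further to the adult side than all clusters, whose median is -0.16.

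How a cluster came to have a value bears on these counts. The authors selected the clusters of the gene-level table at 2-fold or more and at a corrected p of 0.05 from their unpaired test. From it come 38 carriers, 28 higher in the adult and 10 at E15. These are 73.7% and 26.3%, against 48.8% and 51.2% of the 1805 clusters of that table. The 38 had to differ. The other 42 carriers have values only because the authors listed them for a splicing index, a score for exons that depart from the rest of their gene. Only 3 of those 42 differed by 2-fold or more, namely Slc22a6, Slc13a5 and Slc24a2. All 3 are counted above as past 2-fold, but the authors' selection by fold and test does not hold them. RefSeq holds 296 protein-coding genes whose symbols meet the same rule, and for 218 of them no value was analysed here, among them the facilitative glucose carrier Slc2a1 and the bicarbonate carrier Slc4a5.

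**Figure D2:**
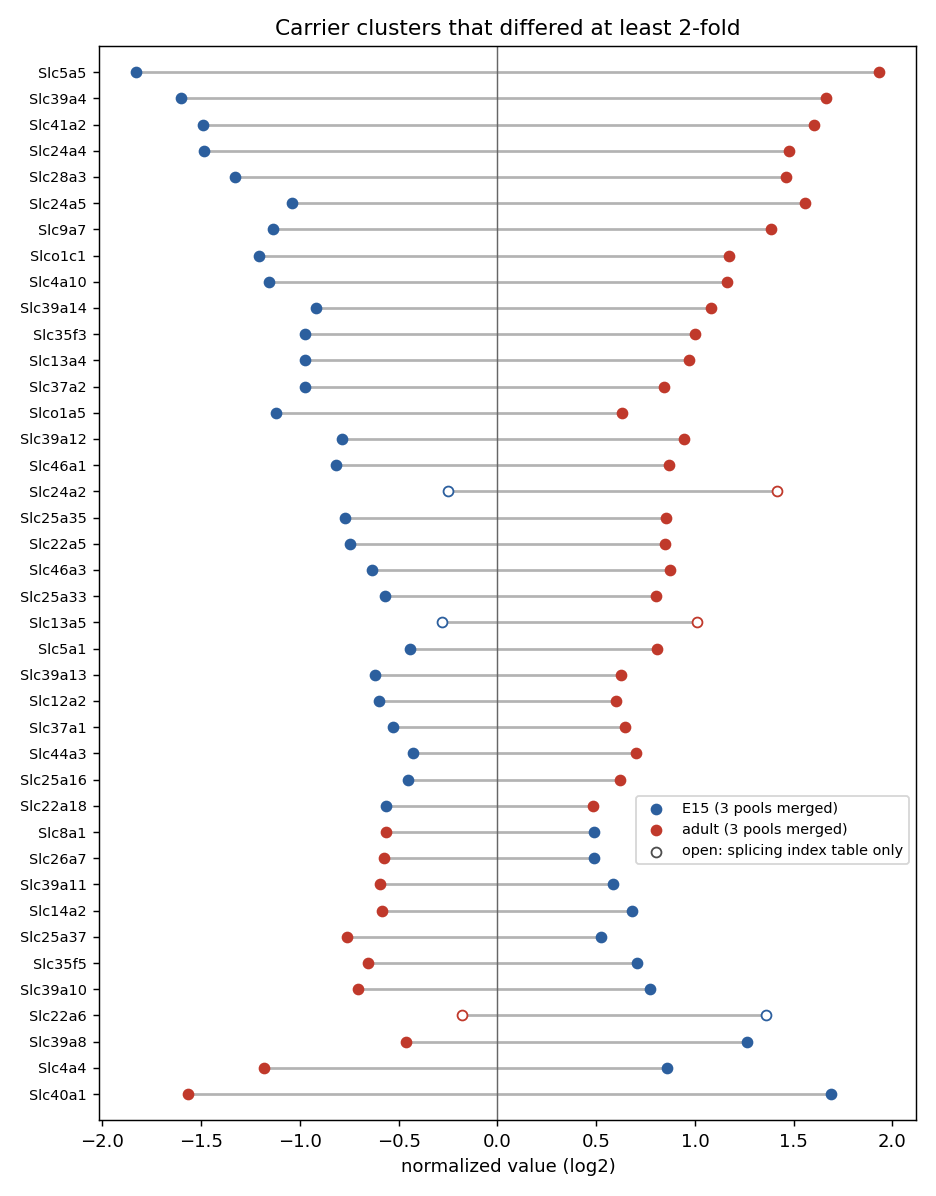
Merged normalized value (log2, x axis) at E15 and in the adult for 40 of the 41 carrier clusters that differed at least 2-fold (y axis), joined by a line whose length is the difference. Slc5a5, at 1.93 in the adult and -1.83 at E15, spans the widest gap, and Slc40a1, at -1.57 in the adult and 1.69 at E15, the widest toward E15. Open circles mark the 3 carriers from the splicing index list alone.

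Metal carriers held both the largest difference toward E15 and several of the largest toward the adult. Of 13 clusters, 5 were at least 2-fold higher in the adult, 4 were at least 2-fold higher at E15 and 4 differed by less, with a median of 0.58. The shares past 2-fold were 38.5% and 30.8%, against 22.9% and 24.4% of all clusters. The zinc importer family Slc39 was divided. Values were held for 7 of its 14 genes in RefSeq, and all 7 differed by at least 2-fold, 4 toward the adult and 3 toward E15. Each of the 7 is in the gene-level table, so that 0 of them lie below 2-fold follows from how that table was made.

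Slc39a4 encodes ZIP4, the zinc importer best known from the intestine. It had a value of 1.66 in the adult and -1.60 at E15, a difference of 3.26 and a fold of 9.59. Slc39a14 encodes ZIP14, which carries zinc, manganese and iron that is not bound to transferrin. It stood at 1.08 in the adult and -0.92 at E15, a difference of 2.00, at the 4-fold mark. Slc39a12, a zinc importer known from the brain, stood at 0.95 and -0.79, a difference of 1.73. For Slc39a13, a zinc carrier of the secretory pathway, the adult value was 0.63 and the E15 value -0.62, a difference of 1.25. All 4 of these importers thus had the higher value in the adult.

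The other 3 members of the family went the opposite way. Slc39a8 encodes ZIP8, a carrier of zinc and manganese at the cell surface. Its value was -0.46 in the adult and 1.27 at E15, a difference of -1.73 and a fold of 3.32, and the size of the sum of the 2 values was 0.80, so the pair was off centre. Slc39a10, another zinc importer of the cell surface, stood at -0.71 and 0.77, a difference of -1.48. Slc39a11 stood at -0.60 in the adult and 0.58 at E15, a difference of -1.18. Of the zinc exporter family Slc30, 3 of 10 genes had values, and these 3 were on the adult side and below 2-fold. Slc30a5 and Slc30a6, which work together to load zinc into the early secretory pathway, had differences of 0.93 and 0.53, and Slc30a9 had 0.58. Among zinc and copper partners, values were held for 2 of 7 genes of a list. Mt3, the brain metallothionein that binds zinc, was higher in the adult by 1.10, and Atp7b, a copper pump, had a difference of -0.95.

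**Figure D3:**
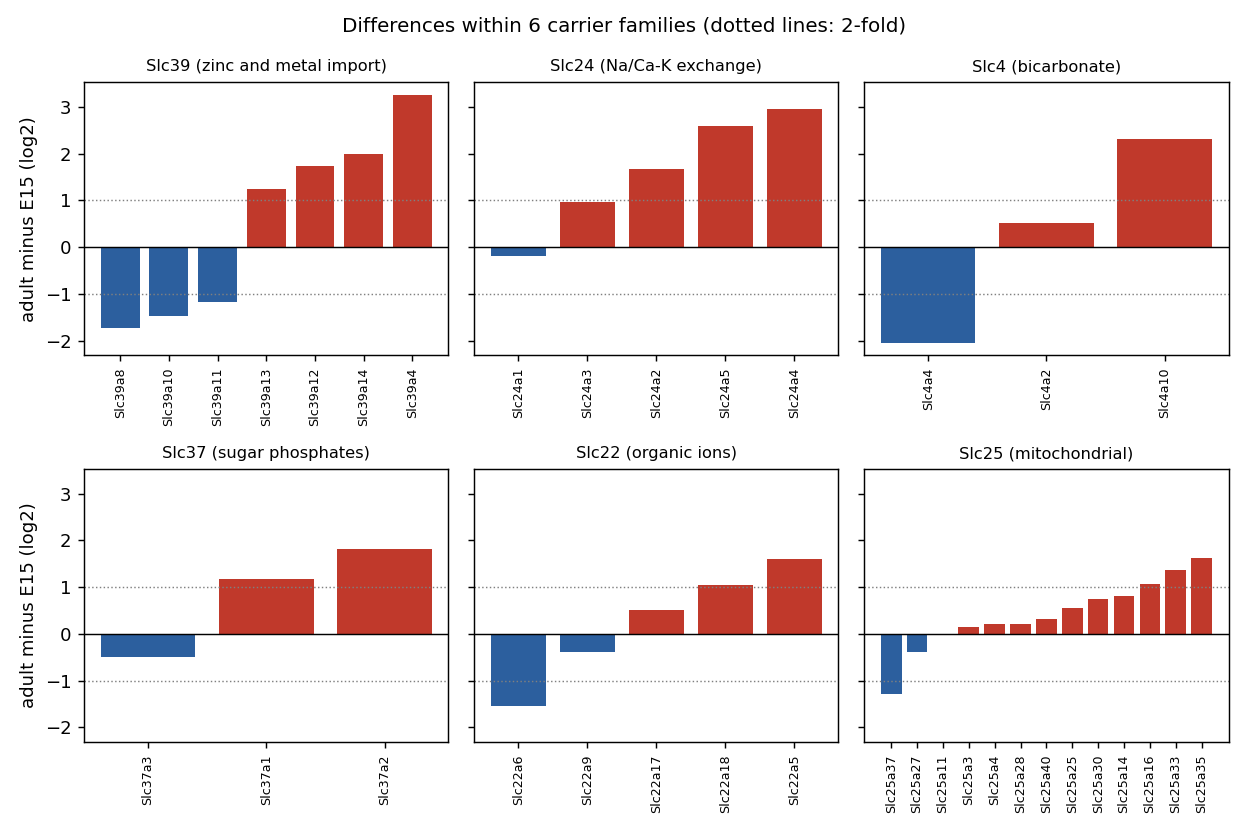
Difference, adult minus E15 (log2, y axis), of each measured member (x axis) of 6 carrier families, with dotted lines at 2-fold. Slc39 runs from -1.73 for Slc39a8 to 3.26 for Slc39a4 with every bar beyond 2-fold, whereas in Slc24 the only bar on the E15 side is Slc24a1 at -0.20.

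Carriers of iron and magnesium ranged from a difference of -3.26 to 3.09. Slc40a1 encodes ferroportin, the only known exporter of iron from cells. Its value was -1.57 in the adult and 1.69 at E15, a difference of -3.26 and a fold of 9.56, the largest of any carrier toward E15. Slc41a2, a magnesium carrier, stood at 1.60 in the adult and -1.49 at E15, a difference of 3.09 and a fold of 8.53. Slc25a37 encodes mitoferrin 1, which brings iron into the mitochondria of red cell precursors for the synthesis of heme. It was higher at E15, at -0.76 in the adult and 0.52 at E15, a difference of -1.29. Its broadly used relative Slc25a28, mitoferrin 2, had a difference of 0.21. Slc11a1, the iron and manganese carrier of phagosomes in macrophages, had a difference of -0.66.

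Markers of red blood cells moved with the E15 iron carriers. Of 11 erythroid genes listed, 9 had values and all 9 were higher at E15, 6 of them by at least 2-fold, with differences from -5.55 for the embryonic globin Hbb-y to -0.48 for Spna1. Alas2, the heme synthesis enzyme of red cell precursors, was lower in the adult by a difference of -2.25. The part of red blood cells in the values of Slc40a1 and Slc25a37 was not tested. Other genes of iron handling were mostly on the adult side. Values were held for 4 of 13 listed genes. Trf, the plasma iron carrier transferrin, differed by 2.36, and Steap1 and Steap3 of the Steap family by 3.44 and 1.23. Heph, the iron oxidase hephaestin that works with ferroportin, had a difference of -0.96. Of 11 macrophage markers, 4 had values. Cd74, H2-Aa and H2-Ab1, which present antigen, were at least 2-fold higher in the adult, while Csf1r had a difference of -0.92. Their part in the value of Slc11a1 was not tested.

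Promoter sequence is shown for metal carriers because zinc acts on several of its own carriers through the metal response element, the site bound by the factor MTF-1. Its core was searched as TGCACNC or TGCGCNC on both strands in the 250 bases before each start in the RefSeq promoter table (mouse build GRCm38.p6). Windows were held for 10 of the 13 metal carrier genes, and not for Slc39a4, Slc39a14 or Slc40a1. A match was found in 5 of their 13 windows, belonging to Slc39a8, Slc39a11, Slc41a2 and Slc30a5, and in 21.4% of all 32851 windows. The 100 bases before the start are printed for the 3 of these genes that differed by at least 2-fold, 5′ to 3′ on the strand of the gene, with the matched core in capitals, which reads on the opposite strand in all 3. They lie at chr3:135825557-135825656 on the plus strand for Slc39a8, chr11:113650093-113650192 on the minus strand for Slc39a11 and chr10:83337818-83337917 on the minus strand for Slc41a2.
Slc39a8, higher at E15: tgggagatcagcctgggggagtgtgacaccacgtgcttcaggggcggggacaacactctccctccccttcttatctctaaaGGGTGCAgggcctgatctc
Slc39a11, higher at E15: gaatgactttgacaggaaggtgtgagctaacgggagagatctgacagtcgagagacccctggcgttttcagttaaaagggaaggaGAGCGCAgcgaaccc
Slc41a2, higher in the adult: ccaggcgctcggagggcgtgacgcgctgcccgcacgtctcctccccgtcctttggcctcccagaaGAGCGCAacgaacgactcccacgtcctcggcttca
In these windows, printed because a match lies within the 100 bases, the core begins 19 bases before the start in Slc39a8, 15 in Slc39a11 and 35 in Slc41a2. Slc39a8 has another window with 0 matches, and Slc39a11 another with its match at 140 bases. The core was therefore present in a window of carriers enriched at either age. A match of these letters is a description of the sequence, and whether any factor binds there was not tested.

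Carriers of acid, base and chloride, which take part in CSF secretion, also moved in both directions. Of 11 clusters, 4 were at least 2-fold higher in the adult and 2 at E15, with a median of 0.84. As shares these are 36.4% and 18.2%, against 22.9% and 24.4% of all clusters. The sodium-coupled bicarbonate carriers Slc4a10 and Slc4a4 were opposed. Slc4a10, which sits in the blood-facing membrane of the plexus epithelium, had a value of 1.16 in the adult and -1.16 at E15, a difference of 2.32. Slc4a4 encodes NBCe1, the electrogenic bicarbonate carrier. It stood at -1.18 and 0.86, and the difference of -2.04 was the only one beyond 4-fold toward E15 other than that of Slc40a1. Slc4a2, the chloride and bicarbonate exchanger of the same blood-facing membrane, differed by 0.52.

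Slc12a2 encodes NKCC1, which moves sodium, potassium and chloride together and lies in the CSF-facing membrane of the plexus. It had a value of 0.60 in the adult and -0.60 at E15, a difference of 1.20 and a fold of 2.29. Its relative Slc12a4, the potassium and chloride carrier KCC1, differed by 0.92. Among sodium and proton exchangers of internal compartments, Slc9a7, the exchanger of the trans-Golgi network, stood at 1.38 in the adult and -1.14 at E15, a difference of 2.52 and a fold of 5.75. The endosomal exchanger Slc9a9 had a difference of 0.84, below 2-fold. Slc9a3r2 carries the family's name but encodes a scaffold protein that anchors exchangers, and its difference was -0.46. Slc26a7, a chloride and bicarbonate carrier, was higher at E15, at -0.57 in the adult and 0.49 at E15, a difference of -1.06. Slc26a10 of the same family had 0.11.

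Of 19 further genes of CSF secretion in a list, 7 had values, and 6 of these were at least 2-fold higher in the adult with 0 at E15. The adult share was 85.7%, against 22.9% of all clusters. All 6 are in the gene-level table, which holds only clusters past 2-fold. The 6 included the sodium pump subunit Atp1b1 at 1.70, the carbonic anhydrase family members Car5b at 3.12, Car8 at 1.84 and Car13 at 1.88, and the water channel Aqp4 at 1.25. Epithelial markers were mixed. Of 13 listed, 5 had values, and the prolactin receptor Prlr, Kl and Cldn2 were at least 2-fold higher in the adult, Enpp2 differed by 0.88, and Kcne2, a potassium channel subunit of the plexus, was at least 2-fold higher at E15. The part of epithelial cell number in the carrier values was not tested. The remaining markers of the list, such as the thyroid hormone binding protein Ttr, were not analysed here. A contrast between the ages does not show which tissue was taken, so the labelled tissue was not checked.

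Calcium exchangers of family Slc24, which swap calcium and potassium for sodium, were among the carriers most enriched in the adult. All 5 genes of the family in RefSeq had values, and 3 were at least 2-fold higher in the adult. That is 60%, against 22.9% of all clusters. Slc24a4 stood at 1.47 in the adult and -1.49 at E15, a difference of 2.96 and a fold of 7.79. Slc24a5, the exchanger of pigment granules in melanocytes, stood at 1.56 and -1.04, a difference of 2.60 and a fold of 6.05. Dct, the 1 melanocyte marker with a value of 7 listed, was also higher in the adult, by 1.21, and the part of pigment cells was not tested. Slc24a3 fell just short of the threshold at 0.96, and Slc24a1, known from rod photoreceptors, had -0.20.

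Slc24a2, an exchanger known from neurons and cone photoreceptors, had values that did not balance. It stood at 1.42 in the adult but only at -0.25 at E15, a difference of 1.67 that came from the splicing index list alone. The size of the sum of its 2 values was 1.16, so the pair was not centred on 0. Of the neuronal markers, Snap25, Syt1 and Camk2a had adult values of 1.26, 1.35 and 2.23 and E15 values of -0.26, -0.62 and -0.43. Dcx of young neurons went the other way and was balanced, at -1.12 in the adult and 1.18 at E15. These were the 4 of 7 neuronal markers with a value, and their part in the value of Slc24a2 was not tested.

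Slc8a1 encodes NCX1, the sodium and calcium exchanger best known from heart. It is named by 2 clusters, each shared with C130026L21Rik, so neither value belongs to 1 gene alone. The cluster with 6 probe sets considered for the splicing index had a difference of -1.05, and the cluster with 12 had -0.55. Both lay on the E15 side, opposite to most of family Slc24. The median over the 7 clusters of calcium exchangers was 0.96.

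**Figure D4:**
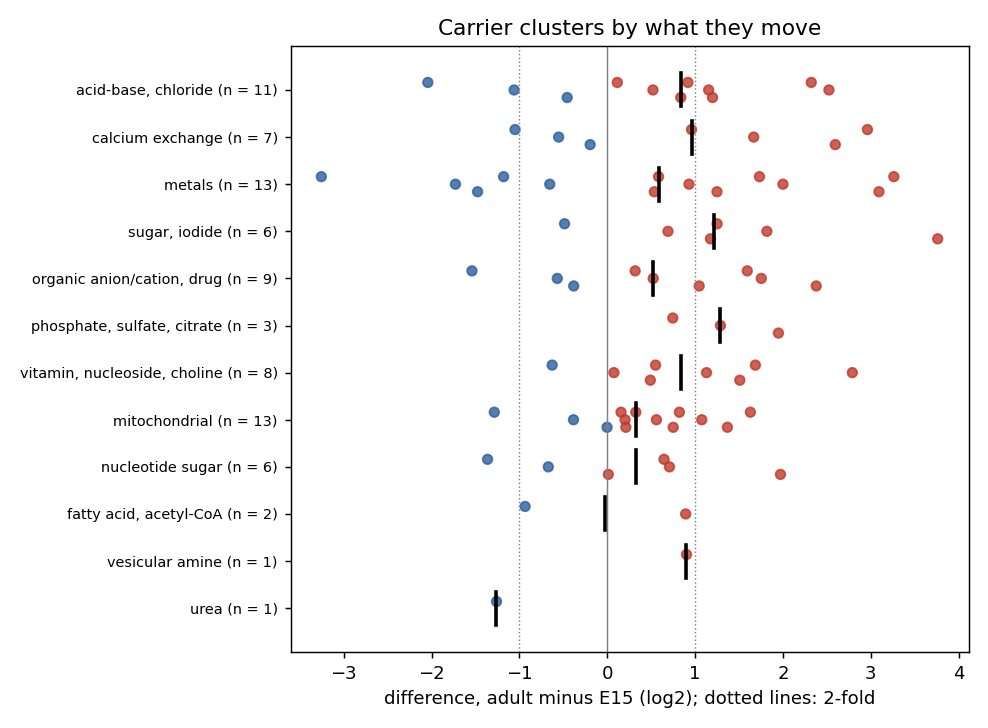
Difference, adult minus E15 (log2, x axis), of each of the 80 carrier clusters, grouped by what they move (y axis), with a black bar at the median of a group and dotted lines at 2-fold. The metal carriers spread widest, from -3.26 to 3.26, while 9 of the 13 mitochondrial carriers lie inside the 2-fold lines.

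Sugar and iodide carriers lay mostly on the adult side. Of 6 clusters, 4 were at least 2-fold higher in the adult and 0 at E15, with a median of 1.21. The adult share was 66.7%, against 22.9% of all clusters, and 24.4% of all clusters were at least 2-fold higher at E15. All 4 are in the gene-level table, which holds only clusters past 2-fold. Slc5a5 encodes the sodium and iodide symporter that concentrates iodide in the thyroid. With 1.93 in the adult and -1.83 at E15, its difference of 3.76 and fold of 13.6 were the largest of all 80 carriers. Slc5a1 encodes SGLT1, the sodium-coupled glucose carrier of the intestine. It stood at 0.81 and -0.44, a difference of 1.25. Slc37a1 and Slc37a2, which exchange sugar phosphates across internal membranes, had differences of 1.17 and 1.82, while their relative Slc37a3 had -0.49. The only facilitative glucose carrier with a value was Slc2a12, at 0.69.

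Thyroid hormone and organic anion carriers follow in the group of 9 clusters for organic anions, organic cations, bile acids and drugs. In it 4 were at least 2-fold higher in the adult and 1 at E15, with a median of 0.52. This makes 44.4% and 11.1%, against 22.9% and 24.4% of all clusters. Slco1c1, a high-affinity carrier of thyroxine at the brain barriers, stood at 1.17 in the adult and -1.21 at E15, a difference of 2.38 and a fold of 5.20. Slco1a5, which carries bile salts and other organic anions, stood at 0.63 and -1.12, a difference of 1.75. Of 7 listed genes of thyroid hormone handling, 3 had values. A cluster shared by the receptor gene Thra and Nr1d1 differed by 1.81 and the receptor gene Thrb by 1.32, while Crym, whose protein binds thyroid hormone in the cytosol, was higher at E15 with -1.52.

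Family Slc22 was divided as well. Slc22a5 encodes OCTN2, the carnitine carrier. It stood at 0.85 in the adult and -0.75 at E15, a difference of 1.59 and a fold of 3.02. Slc22a18, an imprinted member of the family, was just past the threshold at 1.05. Slc22a6 encodes OAT1, an exchanger of organic anions and drugs known from the kidney. It had -0.18 in the adult and 1.36 at E15, a difference of -1.54 that came from the splicing index list alone. The size of the sum of these 2 values was 1.18, the largest among the carriers, so this pair was not centred either. Mesenchymal and meningeal markers were higher at E15 in all 10 of the 13 listed genes that had values, 8 of them by at least 2-fold, with Col3a1 at -3.14 and Crabp2 at -3.10, and the part of these cells in the value of Slc22a6 was not tested.

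Less than 2-fold separated the ages for the other members of the group. Slc22a17, a receptor for lipocalin 2, had a difference of 0.52, and Slc47a1, the exporter of organic cations MATE1, had 0.32. Slc22a9 had -0.38, and in RefSeq its symbol is an older name of more than 1 gene. Slc10a5, of the bile acid carrier family, shares its cluster with Impa1 and had -0.57.

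Vitamin, nucleoside, choline and folate carriers leaned to the adult. Of 8 clusters, 4 were at least 2-fold higher in the adult and 0 at E15, with a median of 0.84. The adult share was 50%, against 22.9% of all clusters, and 24.4% of all clusters were at least 2-fold higher at E15. Slc28a3 encodes CNT3, which takes up purine and pyrimidine nucleosides with sodium. It stood at 1.46 in the adult and -1.33 at E15, a difference of 2.79 and a fold of 6.91. The related Slc28a2, whose cluster is shared with RP23-357I14.1, had only 0.07, and the equilibrative nucleoside carrier Slc29a1 had 0.55. Slc46a1 encodes PCFT, the proton-coupled folate carrier that delivers folate through the plexus to the CSF. Its values were 0.87 in the adult and -0.82 at E15, a difference of 1.69 and a fold of 3.22. Slc46a3 of the lysosome had 1.51. None of the 4 listed folate partners, Folr1 among them, was analysed here. Slc44a3 and Slc44a5, relatives of a choline carrier, went apart at 1.13 and -0.63. Slc23a2, which carries vitamin C into the CSF, had 0.49.

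Of the sulfate, citrate and phosphate carriers, 3 had values, 2 of them at least 2-fold higher in the adult and 1 below, and Slc20a1 and family Slc34 were among those not analysed here. Among all clusters, 22.9% were at least 2-fold higher in the adult. Slc13a4, a sodium-coupled sulfate carrier, stood at 0.97 in the adult and -0.98 at E15, a difference of 1.95 and a fold of 3.86. Slc13a5, the sodium-coupled citrate carrier, stood at 1.01 but only -0.28, a difference of 1.29, and was the third carrier past 2-fold outside the gene-level table, with a sum of 0.73. Snap25, Syt1 and Camk2a were off centre in the same direction and Dcx was not, and the part of neurons in the value of Slc13a5 was not tested. Slc20a2, the phosphate carrier PiT2, had 0.75.

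Of 13 clusters of the mitochondrial carrier family Slc25, 3 were at least 2-fold higher in the adult and 1 at E15. These are 23.1% and 7.69%, against 22.9% and 24.4% of all clusters, so the adult share is near that of all clusters. The other 9 differed by less, and the median was 0.32. Those 9 have values only through the splicing index list, in which 2084 of the 2151 clusters outside the gene-level table lie below 2-fold. Slc25a35 stood at 0.86 in the adult and -0.77 at E15, a difference of 1.63. Slc25a33, which carries pyrimidine nucleotides, stood at 0.80 and -0.57, a difference of 1.37, and Slc25a16 had 1.08. The 3 smallest differences in the family follow. Slc25a11, the oxoglutarate and malate carrier, had -0.003, Slc25a3, the phosphate carrier, had 0.16, and Slc25a4, an exchanger of ADP and ATP, had 0.20. Between these and the threshold lay Slc25a40 at 0.32, Slc25a25, which exchanges ATP with magnesium for phosphate, at 0.56, Slc25a30 at 0.75 and Slc25a14 at 0.82. Slc25a27, a relative of the uncoupling proteins like Slc25a14, had -0.39. These are 13 of the 47 genes of the family in RefSeq, and the rest were not analysed here.

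Family Slc35 brings nucleotide sugars into the Golgi apparatus. Of its 6 clusters, 1 was at least 2-fold higher in the adult and 1 at E15, with a median of 0.33. Each is 16.7%, against 22.9% and 24.4% of all clusters. Slc35f3 stood at 1.00 in the adult and -0.97 at E15, a difference of 1.97. Slc35f5 stood at -0.66 and 0.71, a difference of -1.36, so these members of 1 subfamily were opposed. The established sugar carriers differed less. Slc35a1, for CMP-sialic acid, had 0.71, Slc35a2, for UDP-galactose, had 0.01, and Slc35d2, for UDP-N-acetylglucosamine, had -0.67. Slc35e4, whose substrate is not settled, had 0.65.

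The last groups held 1 or 2 members each. Slc14a2, the urea carrier of the kidney, was higher at E15, at -0.58 in the adult and 0.68 at E15, a difference of -1.27. Slc27a2, which activates very long chain fatty acids, had -0.94, and Slc33a1, which brings acetyl-CoA into the endoplasmic reticulum, had 0.89. Slc18a1, which loads amines into secretory vesicles, had 0.90. These last 3 were below 2-fold.

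The ontology text beside each cluster was not used to choose the carriers. Sodium ion transport was named for 19 of the 80 carriers, with a median of 1.20. Of these, 11 were at least 2-fold higher in the adult and 2 at E15 (57.9% and 10.5%). Among the 80 carriers the shares were 37.5% and 13.8%, and among all clusters 22.9% and 24.4%. With symporter activity counted too, there were 29 carriers, 14 of them at least 2-fold higher in the adult and 2 at E15. Mitochondrion was named for 16 carriers, 4 at least 2-fold higher in the adult and 2 at E15 (25.0% and 12.5%), with a median of 0.27. That adult share is near the 22.9% of all clusters. Plasma membrane was named for 26, with 11 and 4 (42.3% and 15.4%), and a median of 0.92. Zinc ion was named for 9 carriers, 3 at least 2-fold higher in the adult and 3 at E15, with a median of 0.58. Endosome was named for 2, with 1 and 1, and Golgi apparatus for 6, with 1 and 0. These classes overlap and are given as counts only.

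The threshold fell within a run of close values. Just inside it were Slc22a18 at 1.05 and Slc25a16 at 1.08 on the adult side and the more negative Slc8a1 cluster at -1.05 and Slc26a7 at -1.06 on the E15 side. Just outside were Slc24a3 at 0.96, Slc30a5 at 0.93, Slc12a4 at 0.92 and Slc27a2 at -0.94. Values of each age re-centred on their median over all clusters add 0.15 to every difference. The carriers at least 2-fold higher were then 35 in the adult, against 25.7% of all clusters, and 9 at E15, against 19.4%. The adult share of the carriers past 2-fold was 73.2% as deposited and 79.5% re-centred, and that of all clusters past 2-fold 48.3% and 57.0%.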

How the data were processed

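RNA of 6 pools (3 at E15, 3 adult) was hybridized to Affymetrix mouse exon arrays. The authors deposited log2 values, RMA-normalized (robust multi-array average) to the median of each chip in Affymetrix Power Tools, filtered on expression and merged to 1 value per age. The gene-level table was selected by the authors at a fold of at least 2 and a Benjamini-Hochberg corrected p of 0.05 from an unpaired test. The splicing index table, made by the authors from exon-level PLIER values, gives the same kind of values for clusters on both sides of 2-fold. It adds the number of probe sets considered for the index, a deposited count. Software versions and the genome build are not given in the sources used here. The authors' fold changes, directions and splicing indices are their own comparisons and were not used, nor was the third table, of clusters common to both. The pool sizes in the supplementary description differ from those of the labels, which were followed.

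The tables were joined by cluster, and the values of the 1218 clusters in both differed in 0. Differences, folds, counts and medians were computed with Python 3.11.15 and numpy 2.4.6, the counting was tested on simulated data, and plots were drawn with matplotlib 3.10.9. Carriers were grouped by family number. Carriers past 2-fold were named, and below 2-fold the largest and smallest of each group and members of families with a carrier past 2-fold; the remaining ones were added. A carrier past 2-fold and some partner genes are counted but not reported here by name. The members, groups, partner and marker lists were chosen with earlier results of these data known. Promoters and gene lists are from RefSeq (GRCm38.p6), where 78 of the 79 symbols were found. Alternatives were fold thresholds of 3 and 4, the gene-level table alone, clusters with 1 symbol, 1 row per gene and re-centred values. With 0 columns of single arrays, the planned limma fit, the unpaired test, the omission of each replicate and the replicate block were not run.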

Additional observations from a re-analysis of the deposited data

How the results depend on the processing

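The counts of 30 carriers in the adult and 11 at E15 became 19 and 3 at a threshold of 3-fold and 10 and 2 at 4-fold. With the gene-level table alone, which holds 0 clusters below 2-fold by its construction, the counts were 28 and 10 and the median difference rose from 0.70 to 1.44, while that whole table held 880 clusters higher in the adult and 925 at E15, with a median of -1.01. Re-centring each age, which adds 0.15, took Slc26a7 and the more negative Slc8a1 cluster below 2-fold and brought Slc30a5, Slc24a3, Slc33a1, Slc18a1 and Slc12a4 past it in the adult. It turned Slc25a11 from -0.003 to 0.15 and the median of Slc27a2 and Slc33a1 from -0.02 to 0.13, and 0 of the carriers past 2-fold changed sign. With only clusters of 1 symbol, the median of the calcium exchangers moved from 0.96 to 1.67, since both Slc8a1 clusters drop out. Clusters of 1 symbol and 1 row per gene each gave 30 and 10. No paired analysis was possible with the values used here, because each age has 1 merged value, and for the same reason no replicate could be left out. How far any carrier lay above background is not known, because the values hold no absolute level.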
